A study of Danio rerio with 6 samples.

Results

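The nuclear-encoded genes of oxidative phosphorylation (OXPHOS) were followed in zebrafish atrial cardiomyocytes (CMs) at 72 and 48 hours post-fertilization (hpf). Members were the rows that the deposited table annotates with the KEGG pathway Oxidative phosphorylation and with neither Lysosome nor Citrate cycle, and whose mean raw count over the 6 libraries was above 5. By this rule, 97 of 23000 genes were members. Of 117 rows with the OXPHOS term, 13 were also in Lysosome, 5 were the complex II genes of the citrate cycle and 2 (ndufa4l2a and ppa1a) were listed at 0 in all libraries. The rule used no difference between stages. The members nearest above its count minimum were cox8b, cox4i2 and ndufs1, with mean raw counts of 12.8, 15.7 and 16.2.

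Each stage had 3 bulk RNA-seq libraries. Both stages were wild-type by their labels and carried 3 reporter transgenes: myh6:mTagBFP2, driven by an atrial myosin promoter, myh7:mCherry-NTR, driven by a ventricular myosin promoter, and 7XTCF-Sia:eGFP, a Wnt reporter that marks the atrioventricular canal and sinus venosus. The 72 hpf group and the 48 hpf group were each sorted as mTagBFP2+ eGFP- cells with low or no mCherry. The study describes a low mCherry signal in the atrium too. Cells came from pools of dissected hearts, so a library is a pool of many animals and not 1 individual. By the study's methods, replicates 1 and 2 combined cells from a FACSAria III and a BigFoot sorter, and replicate 3 came from the BigFoot alone. If the library labels follow that numbering, sorter and depth cannot be told apart, because replicate 3 was the shallowest library of each stage. A 72 hpf library held 3577234 to 4541886 counts, against 3694451 to 5629941 in a 48 hpf library. Levels are given in CPM, counts scaled to a library's total, and a floor of 3 counts stood at 0.533 to 0.839 CPM. The labelled cell type was met by its markers: the CM list summed to 4527 to 5332 CPM at 72 hpf and 3618 to 4786 CPM at 48 hpf, and the atrial list to 3080 to 3619 CPM at 72 hpf and 2515 to 3621 CPM at 48 hpf. Markers listed for other cells were also present. The ventricular list summed to 567 to 825 CPM at 72 hpf and 1013 to 1675 CPM at 48 hpf, with irx4a at 0 in all libraries. Most of its counts were myh7, with 3115, 2359 and 2738 raw counts at 72 hpf, against 5228, 4851 and 5003 at 48 hpf. Whether these came from atrial or ventricular cells was not tested. The leukocyte list summed to 0.280 to 107 CPM at 72 hpf and 339 to 760 CPM at 48 hpf. For the atrioventricular canal list the sums were 876 to 1035 CPM at 72 hpf and 1180 to 1403 CPM at 48 hpf. Endothelial sums (206 to 529 CPM at 72 hpf, 244 to 600 CPM at 48 hpf) overlapped between stages. So did epicardial sums (204 to 822 CPM at 72 hpf, 298 to 720 CPM at 48 hpf).

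In oxidative phosphorylation, complexes I and II pass electrons to ubiquinone, complex III passes them on to cytochrome c and complex IV, cytochrome c oxidase, transfers them to oxygen. The protons pumped on the way drive complex V, the ATP synthase, and heart muscle draws most of its ATP from this chain. Most subunits are encoded in the nucleus, and complexes I, III, IV and V also need subunits encoded in mitochondrial DNA, which the counts used here do not hold because mitochondrial reads had been removed. In mammals several complex IV subunits exist as a ubiquitous form and a form found in heart and skeletal muscle. KEGG lists the vacuolar proton pump (V-ATPase), which acidifies lysosomes and other vesicles by burning ATP, under the same pathway name, although it is no part of the respiratory chain.

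By complex, the members were 36 of complex I, 9 of complex III, 17 of complex IV, 4 of complex IV assembly and heme synthesis, 16 of complex V, 12 of the V-ATPase and 3 others, the inorganic pyrophosphatases ppa1b and ppa2 and the phosphatase lhpp. The first 5 classes together held 82 genes, called the mitochondrial members below. Members lay on 25 chromosomes, and 16 overlapped another gene model. For these the count may be shared or reduced, since reads on several genes were not counted and use of strand was not stated. ndufs1, the largest complex I subunit in mammals, was 1 of them. Its gene model on danRer11 chromosome 6 (13206516 to 13231951) overlaps ino80db on the same strand, and it held 23, 19 and 13 counts at 72 hpf, against 16, 14 and 12 at 48 hpf. The part of the overlap in this low count was not tested. Other members with an overlap on the same strand had mean raw counts from 150.8 (atp6v0e1) and 156 (ndufb11) to 1092.5 (atp5pb). The lengths of the overlaps were not compared.

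No member passed the test between stages. With p-values adjusted by Benjamini-Hochberg over 16100 genes, and calls made at an adjusted p below 0.05 and a change beyond 1.5-fold, the quasi-likelihood test of edgeR called 0 of 97 members higher and 0 lower, where it called 0.00621% of all genes higher and 0.0% lower. At an unadjusted p under 0.05, 4 members were higher (cox6a2, ppa1b, cox5b2 and ndufa4), where 3.12% of all genes were, and 2 were lower (atp6v1ba and atp6v1aa), where 5.61% were. DESeq2 called 2 members higher (cox6a2 and ppa1b) and 0 lower, against 1.16% and 2.82% of all genes, and limma voom called 0 members, as it called 0.0% of all genes in either direction. At DESeq2's unadjusted p under 0.05, 6 members were higher and 4 lower, where 5.93% and 9.58% of all genes were. The normalized counts of the stages did not overlap for 7 members that were higher and 4 that were lower, where 7.25% and 9.31% of all genes were so. Those 4 were all among the 12 V-ATPase members. Taken over all 97 members, these counts lie near those of all genes or below them. In bulk libraries, fewer cells of a type and less RNA per cell cannot be told apart.

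The mitochondrial members shared small positive estimates. The edgeR log2 fold change was above 0 for 80 of the 82, with a median of 0.19, where 48.5% of all tested genes were above 0 and their median was -0.02. The exceptions were cox4i2 and cox8b, which had low counts. All 36 complex I genes had positive estimates (median 0.19), as had all 9 of complex III (0.21), 15 of 17 of complex IV (0.16), all 4 of complex IV assembly (0.21) and all 16 of complex V (0.20). For the 79 mitochondrial members with a mean raw count above 100, the standard error (SE) of the log2 fold change was 0.15 to 0.50, as large as the shared shift or larger for many of them.

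**Figure D1:**
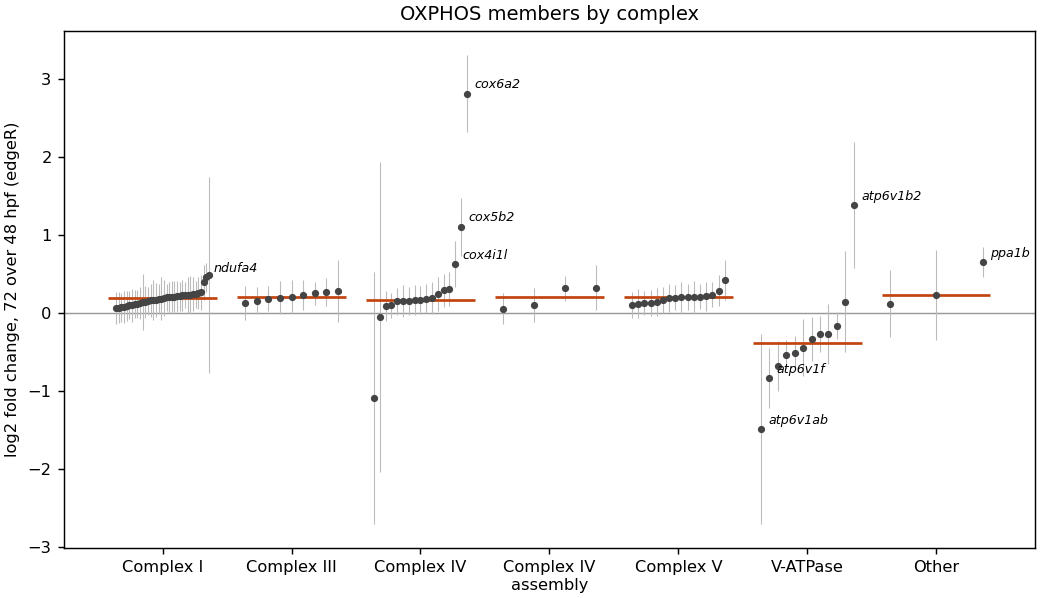
Log2 fold change of each of the 97 members (points, edgeR, 72 over 48 hpf) with its SE (grey bars), grouped by complex, with the median of each group as an orange line. Medians are 0.16 to 0.21 for complexes I, III, IV, IV assembly and V, and -0.39 for the V-ATPase.

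Summed over the members of a complex, these levels overlapped between stages. Complex I summed to 4695, 4591 and 5186 CPM at 72 hpf, against 4231, 3303 and 4970 CPM at 48 hpf. Complex III summed to 1956, 1842 and 2075 CPM at 72 hpf, against 1714, 1321 and 1978 CPM at 48 hpf. Complex V summed to 3448, 3444 and 3996 CPM at 72 hpf, against 3123, 2562 and 3731 CPM at 48 hpf. In each of these complexes the lowest library was replicate 2 of 48 hpf, the deepest of the 6, and replicate 3 of 48 hpf lay above replicates 1 and 2 of 72 hpf. The same held for complex IV, with 1739, 1752 and 2011 CPM at 72 hpf and 1535, 1246 and 1794 CPM at 48 hpf. All mitochondrial members together averaged 12771 ± 945 CPM at 72 hpf and 10954 ± 2106 CPM at 48 hpf (SD, n = 3 each), a difference smaller than the SD at 48 hpf.

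**Figure D2:**
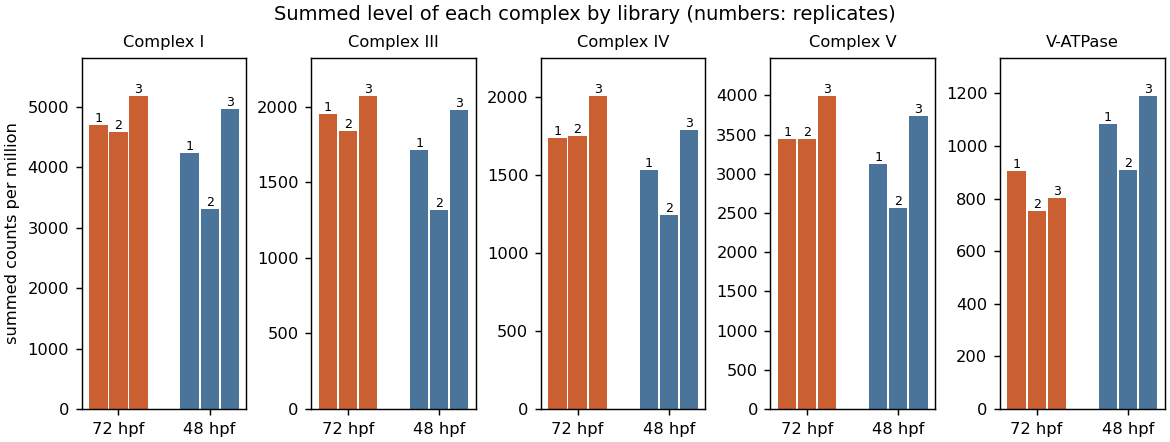
CPM summed over the members of each complex, 1 bar per library, with 72 hpf in orange on the left and 48 hpf in blue on the right of each panel and replicate numbers above the bars. The 48 hpf replicate 2 bar is the lowest for complexes I, III, IV and V, whereas for the V-ATPase all 72 hpf bars lie below all 48 hpf bars, by a narrow margin between 904 and 910 CPM.

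The size of this shared shift depended on single libraries and on scaling. Without replicate 2 of 48 hpf the median of the mitochondrial members was 0.06 and 66 of 82 were above 0, without replicate 3 of 48 hpf the median was 0.32, and without replicate 3 of 72 hpf it was 0.11. When all libraries were given the same size, it was 0.08 with 69 of 82 above 0, while the median of all genes moved to -0.17. Relative to the median of all genes, the mitochondrial members thus stood 0.25 higher on that scale and 0.22 higher after TMM normalization. Raw counts of these members did not follow library depth as those of all genes did (below). Neither difference can therefore show a change in level apart from depth.

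The raw counts of these genes were nearly the same in every library, whatever its depth. Library totals differed up to 1.57-fold, but the summed raw counts of the mitochondrial members differed at most 1.17-fold: they were 56140, 54028 and 49554 at 72 hpf, against 52128, 49588 and 48095 at 48 hpf. For cox17, the copper chaperone of complex IV, raw counts were 410, 417 and 405 at 72 hpf, against 418, 425 and 405 at 48 hpf. For atp5f1b, the catalytic beta subunit of ATP synthase and the member with the highest count, they were 2402, 2328 and 2192 at 72 hpf, against 2244, 2139 and 2082 at 48 hpf. In both genes the stages overlapped and the spread over all libraries was small, with a coefficient of variation (CV) of 1.94% for cox17 and 5.34% for atp5f1b.

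Such steadiness was rare over all genes, but it was not confined to the members. Among genes with a mean raw count of 100 to 2500, the median CV over the 6 libraries was 6.87% for 79 mitochondrial members and 31.0% for all 8892 genes, and 66 of the 79 (83.5%) had a CV under 10%, where 5.49% of all genes did. By CV, the 12 V-ATPase members were spread like other genes (median CV 30.8%, 0 under 10%). Genes of the KEGG Ribosome list (median CV 10.9%, n = 118) and of the Citrate cycle (9.38%, n = 25) lay between. Within the range of 100 to 2500, the 8892 genes were not matched to the members by count level. The 2 libraries of 48 hpf farthest apart in depth show what this means: replicate 2 had 1.52 times the total of replicate 3, the median ratio of their raw counts was 1.49 over all 8892 genes, and it was 1.04 over the 79 mitochondrial members, of which 0 reached 1.52. For the corresponding pair at 72 hpf, replicates 1 and 3, the totals stood at 1.27, all genes at 1.27 and the mitochondrial members at 1.11. The V-ATPase members had a median ratio of 1.119 for the 48 hpf pair, nearer to the mitochondrial members than to all genes, and 4 of 12 reached 1.52. For the 72 hpf pair their median ratio was 1.357, above both other sets, and 7 of 12 reached 1.27.

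Raw counts that do not grow with depth give CPM values that fall with depth. The lower CPM of replicate 2 of 48 hpf thus goes with its larger total. That library also had the highest endothelial sum at 48 hpf, 600 CPM against 347 and 244 CPM. At 72 hpf, replicate 2 likewise had the highest endothelial sum (529 CPM) and the lowest mitochondrial sum (12101 CPM). The CM marker sum of replicate 2 of 48 hpf (3982 CPM) lay above that of replicate 1 (3618 CPM). Most counts of the CM list were ttn.2, with 11095, 16649 and 12127 raw counts in replicates 1, 2 and 3 of 48 hpf. Atrial marker sums were lowest in replicate 2, at 2515 CPM against 2960 and 3621 CPM at 48 hpf. The gene with the most counts in the atrial list, myh6, had 6984, 7122 and 6919 raw counts in replicates 1, 2 and 3 of 48 hpf. Its raw counts were thus also nearly the same whatever the depth, and its CPM was lower in the deepest library. At 72 hpf the atrial sums were 3080 CPM in replicate 2, against 3345 and 3619 CPM. The part of cell composition in these CPM values was not tested. The counts had been freed of duplicate reads by position, a step that limits how many reads an abundant and short transcript can keep. myl7, the abundant myosin light chain of CMs, was likewise near constant, at 1813, 1781 and 1708 counts at 72 hpf, against 1893, 1830 and 1782 at 48 hpf. So was nppb, at 1245, 1162 and 1171 counts at 72 hpf, against 1204, 1192 and 1175 at 48 hpf. The mitochondrial carrier gene slc25a5 had 2050, 2046 and 1947 counts at 72 hpf, against 2035, 2047 and 1970 at 48 hpf. Other genes of these cells, such as ttn.2, were not near constant. The part of duplicate removal in the steadiness of the members was not tested. Counts at such a limit would not show a change in level, so the small estimates above do not show that levels were alike in the 2 stages.

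**Figure D3:**
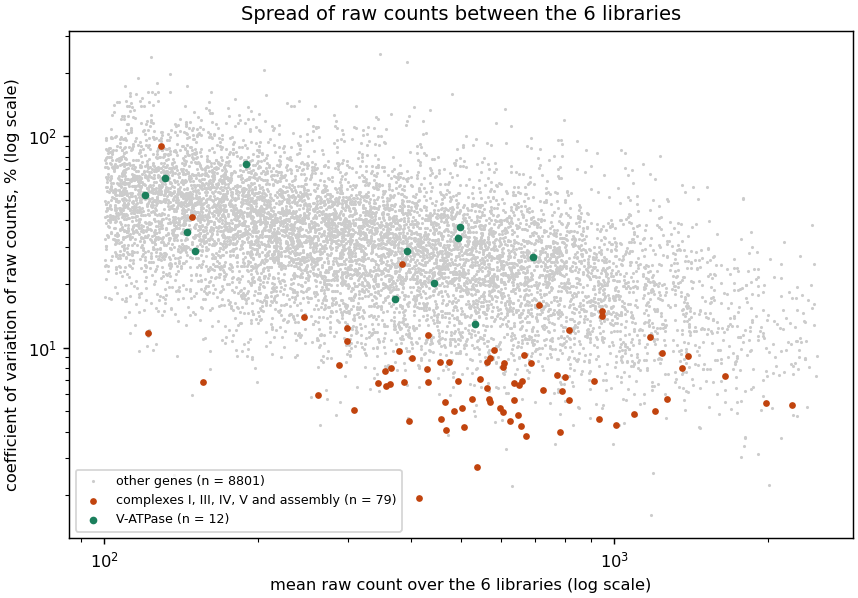
Coefficient of variation of raw counts over the 6 libraries against the mean raw count, both on log axes, for genes with a mean of 100 to 2500 (grey), the 79 mitochondrial members among them (orange) and the 12 V-ATPase members (green). Most orange points lie below 10% and under the bulk of the grey points, and the green points lie within it.

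Of the 7 members whose normalized counts were higher at 72 hpf without overlap, 4 were ndufa4, ndufs1, atp5mea and ppa1b. The others were 3 of the 17 complex IV genes, where 7.25% of all genes were higher without overlap. These 3 were second copies of subunits that occur as isoforms, and other such copies did not stand apart (below). The clearest was cox6a2 (ENSDARG00000054588, danRer11 chromosome 3, 31039923 to 31042102), whose mammalian namesake is the heart and skeletal muscle form of subunit 6A. The deposited table and its UniProt column call this gene cox6a2, while another list of gene names gives COX6A1 for the same identifier. It had 294, 244 and 137 raw counts at 72 hpf, against 22, 39 and 39 at 48 hpf. All 72 hpf libraries lay above all 48 hpf libraries, and the lowest of 72 hpf was the shallowest library of the series. Normalized counts averaged 231 ± 56.4 at 72 hpf and 33.0 ± 13.4 at 48 hpf (SD, n = 3 each), a 7.01-fold difference (log2 fold change 2.81, SE 0.50). The adjusted p was 0.292 by edgeR's quasi-likelihood test and 7.44e-07 by DESeq2, so the call rests on the tool. Leaving out any 1 library gave a log2 fold change of 2.56 to 3.16 and unadjusted edgeR p-values of 6.4e-04 to 0.0044.

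Its paralog cox6a1, the ubiquitous form in mammals, was among the steadiest genes in raw counts. It had 551, 553 and 533 raw counts at 72 hpf, against 550, 526 and 519 at 48 hpf, with overlapping stages after normalization (log2 fold change 0.15, SE 0.20). Its gene model overlaps another on the opposite strand. As a share of the reads on both copies, cox6a2 made up 34.8%, 30.6% and 20.4% at 72 hpf, against 3.85%, 6.90% and 6.99% at 48 hpf. These are shares of deduplicated counts, not corrected for transcript length, and a limit on the counts of 1 copy would shift them.

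The same direction was seen in 2 further isoform genes, with smaller differences that did not pass the test. cox5b2, a second copy of the zinc-binding subunit 5B that another list of gene names also calls COX5B, had 219, 227 and 151 raw counts at 72 hpf, against 111, 88 and 95 at 48 hpf. The stages did not overlap, and the fitted difference was 2.15-fold (SE 0.37 on the log2 scale, edgeR adjusted p = 0.486, DESeq2 adjusted p = 0.0571). Its counterpart, listed as COX5B (ENSDARG00000015978), had 822, 804 and 753 counts at 72 hpf, against 804, 775 and 744 at 48 hpf. cox5b2 thus held 21.0%, 22% and 16.7% of the reads of both copies at 72 hpf and 12.1%, 10.2% and 11.3% at 48 hpf. Another row that carries the symbol COX5B (ENSDARG00000113254) has no OXPHOS term and held 16 to 25 counts at 72 hpf, against 5 to 19 at 48 hpf.

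cox4i1l encodes a second form of subunit 4, the regulatory subunit that binds ATP in mammals. It had 446, 512 and 405 raw counts at 72 hpf, against 372, 239 and 323 at 48 hpf. The stages did not overlap, with a log2 fold change of 0.63 (SE 0.29, edgeR adjusted p = 0.579, DESeq2 adjusted p = 0.222), and leaving out single libraries moved it between 0.37 and 0.83. The value of 0.37, the lowest, came without replicate 2 of 48 hpf. cox4i1 had 655, 644 and 608 counts at 72 hpf, against 643, 625 and 579 at 48 hpf, overlapping between stages. The form known from lung in mammals, cox4i2, was low and erratic, with 4, 11 and 23 counts at 72 hpf against 2, 54 and 0 at 48 hpf, and its estimate of -0.05 (SE 1.99) turned positive in several alternatives.

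A further isoform gene, cox7a1, lies outside the membership because its row has no OXPHOS term. It was 1 of 7 such subunit genes, all with positive estimates (median 0.21). Of these, 1 was higher at an unadjusted p under 0.05, where 3.12% of all genes were, and 0 were called by edgeR or DESeq2. In mammals cox7a1 encodes the heart and skeletal muscle form of subunit 7A. It had 373, 337 and 307 raw counts at 72 hpf, against 196, 188 and 216 at 48 hpf, which do not overlap. The log2 fold change was 0.85 (SE 0.28), with an adjusted p of 0.472 by edgeR and 0.0540 by DESeq2. The ubiquitous form cox7a2a, a member, had 513, 495 and 471 counts at 72 hpf, against 507, 480 and 448 at 48 hpf. cox7a1 accounted for 42.1%, 40.5% and 39.5% of the reads of both at 72 hpf, against 27.9%, 28.1% and 32.5% at 48 hpf.

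**Figure D4:**
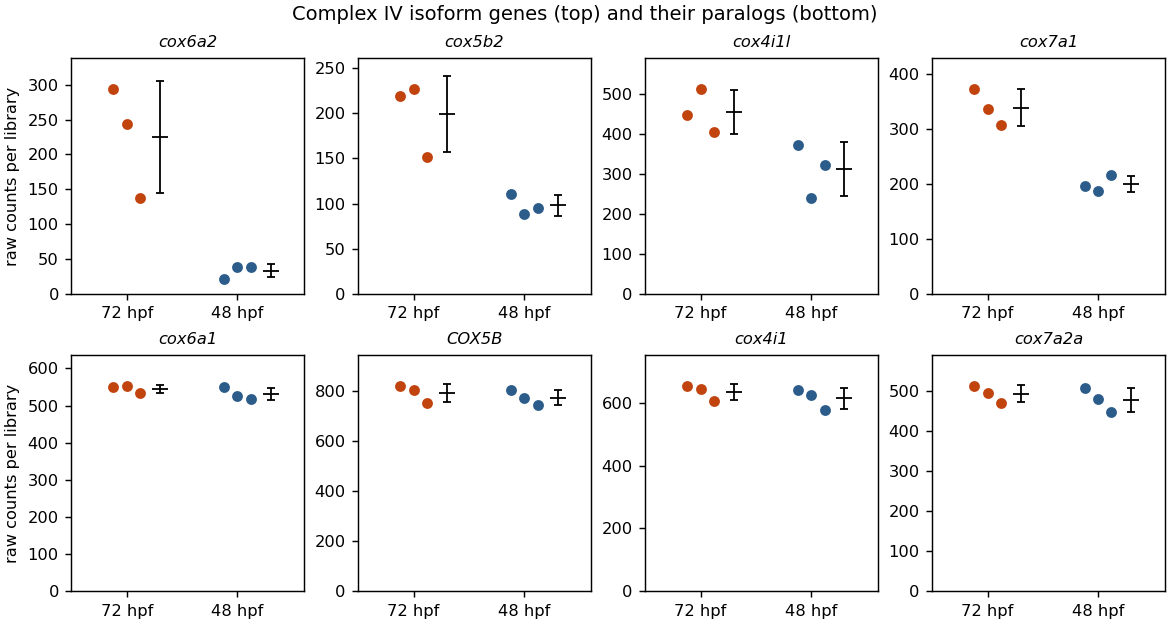
Raw counts per library of cox6a2, cox5b2, cox4i1l and cox7a1 (top) and of their paralogs cox6a1, COX5B, cox4i1 and cox7a2a (bottom), with 72 hpf in orange left of 48 hpf in blue and the mean and SD of each stage in black. In the top row the 72 hpf points lie above all 48 hpf points, and in the bottom row the stages overlap.

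Not every duplicated subunit behaved in this way. cox6b2 had 685, 650 and 619 raw counts at 72 hpf, against 656, 732 and 606 at 48 hpf, and took 48.4% to 50.6% of the reads of cox6b2 and cox6b1 together at 72 hpf and 47.7% to 52.3% at 48 hpf. cox5ab took 47.7% to 48.4% of the reads on both subunit 5A genes at 72 hpf and 44.4% to 48.1% at 48 hpf, with a log2 fold change of 0.29 (SE 0.21). The subunit 8 gene cox8a had 433, 378 and 398 counts at 72 hpf, against 374, 383 and 355 at 48 hpf, and cox8b, a heart form in many mammals, had 4, 20 and 1 counts at 72 hpf, against 6, 19 and 27 at 48 hpf. In all of these genes the stages overlapped. The subunit 6B and 5A genes were among those with near-constant raw counts. A limit on the counts of both copies would hold their shares steady, so these shares do not show that the levels were alike. Such a limit was not tested.

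In complex I, ndufa4 had the smallest p. It is named as a complex I subunit, and KEGG lists it there, although in human cells its protein has been assigned to cytochrome c oxidase. Another list of gene names calls this row ndufa4b. It had 1089, 1108 and 980 raw counts at 72 hpf, against 849, 815 and 828 at 48 hpf. The stages did not overlap, and the log2 fold change was 0.46 (SE 0.18, edgeR adjusted p = 0.558, DESeq2 adjusted p = 0.128). It lay between 0.31 and 0.63 when single libraries were left out. The related ndufa4l had 554, 626 and 561 counts at 72 hpf, against 598, 555 and 484 at 48 hpf, and the stages overlapped.

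Apart from ndufs1, whose few counts gave an estimate of 0.48 (SE 1.25), the other complex I genes had smaller estimates. ndufs8a, an iron-sulfur subunit next to the ubiquinone site, had 880, 784 and 701 raw counts at 72 hpf, against 714, 544 and 657 at 48 hpf, with a log2 fold change of 0.39 (SE 0.23, edgeR adjusted p = 0.652). Its stages overlapped. Over the 36 genes, log2 fold changes lay between 0.06 and 0.48 and adjusted edgeR p-values between 0.558 and 0.977.

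Complex III had the narrowest range of the respiratory complexes, with log2 fold changes of 0.13 to 0.28 and 0 of its 9 genes at an unadjusted p under 0.05. uqcrc1, a core protein of the complex, had 1835, 1660 and 1535 raw counts at 72 hpf, against 1737, 1547 and 1568 at 48 hpf. uqcrfs1, the Rieske iron-sulfur protein that passes electrons towards cytochrome c, had 1618, 1435 and 1334 counts at 72 hpf, against 1391, 1359 and 1239 at 48 hpf. In both genes the stages overlapped, and the log2 fold change was 0.16 (SE 0.17) for uqcrc1 and 0.25 (SE 0.15) for uqcrfs1.

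Complex V was nearly as uniform, at 0.10 to 0.42. atp5mea, a copy of the membrane subunit e that supports dimers of the synthase, had 289, 285 and 245 raw counts at 72 hpf, against 236, 214 and 208 at 48 hpf. It was the only 1 of the 16 whose normalized counts did not overlap between stages (log2 fold change 0.42, SE 0.26, edgeR adjusted p = 0.677). Of all genes, 7.25% were higher without overlap. atp5mc1, encoding the c subunit of the rotor ring, had 879, 837 and 828 counts at 72 hpf, against 775, 727 and 750 at 48 hpf. These raw counts do not overlap, but its normalized counts do (log2 fold change 0.29, SE 0.20), and it took 44.4% to 46.5% of the reads on atp5mc1 and atp5mc3b at 72 hpf and 42.4% to 43.2% at 48 hpf.

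Of the 4 assembly genes, cox10, which makes heme O for cytochrome c oxidase, had 987, 796 and 830 raw counts at 72 hpf, against 788, 822 and 680 at 48 hpf (log2 fold change 0.32, SE 0.16, edgeR adjusted p = 0.602). The stages overlapped, as they did for cox11, cox15 and cox17. Among the 3 other members, ppa1b, an inorganic pyrophosphatase that clears the pyrophosphate released in biosynthesis, had 540, 534 and 566 raw counts at 72 hpf, against 421, 423 and 317 at 48 hpf. The stages did not overlap, and normalized counts averaged 584 ± 104 at 72 hpf and 373 ± 33.2 at 48 hpf (SD, n = 3 each). The log2 fold change was 0.65 (SE 0.19), with an adjusted p of 0.420 by edgeR and 0.0371 by DESeq2, the second member on which the tools differed. ppa2, the mitochondrial pyrophosphatase, overlapped between stages at 105, 76 and 141 counts at 72 hpf, against 151, 129 and 44 at 48 hpf.

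The V-ATPase members differed in direction from the respiratory chain. The estimate was below 0 for 10 of 12, with a median of -0.39, where 51.5% of all genes were below 0. Their summed level was 904, 751 and 803 CPM at 72 hpf, against 1084, 910 and 1191 CPM at 48 hpf, which stand apart by a narrow margin. 0 of 12 passed edgeR's adjusted threshold, and 2 were lower and 0 higher at an unadjusted p under 0.05, where 5.61% and 3.12% of all genes were. DESeq2 called 0 and limma voom called 0, and at DESeq2's unadjusted p under 0.05 there were 4 lower and 1 higher, where 9.58% and 5.93% of all genes were. Normalized counts did not overlap between stages for 4 that were lower and 0 that were higher, where 9.31% and 7.25% of all genes were so. The 12 other V-ATPase rows that were left out because KEGG also lists them in Lysosome, and that passed the filter, had a median of -0.32, with 9 below 0, and 3 lower and 1 higher at an unadjusted p under 0.05. Of these, atp6v0ca, a proton-carrying ring subunit, was called lower by DESeq2 (log2 fold change -0.94, DESeq2 adjusted p = 0.00365, edgeR adjusted p = 0.394).

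atp6v1ba, a B subunit of the catalytic head, had 678, 517 and 438 raw counts at 72 hpf, against 917, 832 and 783 at 48 hpf. All 72 hpf libraries lay below all 48 hpf libraries, with a log2 fold change of -0.54 (SE 0.19, edgeR adjusted p = 0.495, DESeq2 adjusted p = 0.0796). atp6v1aa, an A subunit, where ATP is hydrolysed, had 415, 318 and 405 counts at 72 hpf, against 605, 765 and 453 at 48 hpf. Its stages also stood apart (log2 fold change -0.51, SE 0.21, edgeR adjusted p = 0.564). atp6v1f, a subunit of the central stalk, had 120, 97 and 85 counts at 72 hpf, against 202, 172 and 197 at 48 hpf, likewise without overlap (log2 fold change -0.84, SE 0.38, edgeR adjusted p = 0.568). It overlaps lamtor4 on the opposite strand, and atp6v0e1, also without overlap after normalization, shares its strand with rpl26.

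Second copies of the A and B subunits were less steady. atp6v1ab had 102, 188 and 0 raw counts at 72 hpf, against 185, 414 and 246 at 48 hpf, and atp6v1b2 had 248, 91 and 198 at 72 hpf, against 114, 126 and 10 at 48 hpf. The stages overlapped in both, and the log2 fold changes of -1.49 (SE 1.21) and 1.38 (SE 0.81) each include 1 library near 0, replicate 3 of 72 hpf for atp6v1ab and replicate 3 of 48 hpf for atp6v1b2. The name of the second is shared: another list of gene names calls the atp6v1ba row ATP6V1B2. Of the remaining V-ATPase members, atp6v1d had the largest decrease in estimate, with 419, 528 and 173 counts at 72 hpf, against 701, 619 and 556 at 48 hpf (log2 fold change -0.68, SE 0.32), and its normalized counts overlapped.

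**Figure D5:**
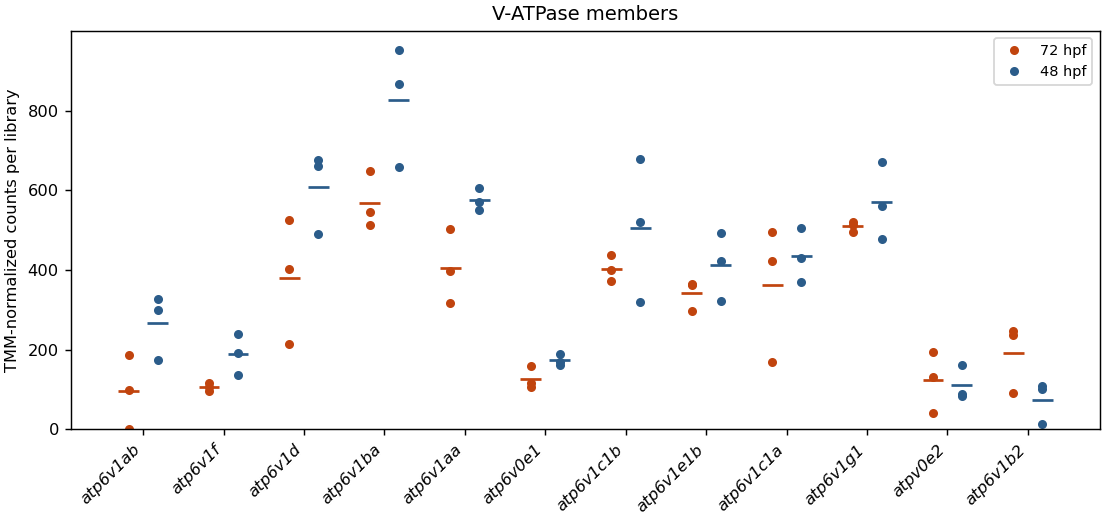
TMM-normalized counts of the 12 V-ATPase members, 1 point per library and a line at the mean of each stage, with 72 hpf in orange left of 48 hpf in blue, ordered by log2 fold change. Stages do not overlap for atp6v1f, atp6v1ba, atp6v1aa and atp6v0e1, and atp6v1ab and atp6v1b2 show the widest spread relative to their means.

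Leukocyte markers, like the V-ATPase genes, were lower at 72 hpf than at 48 hpf. Within 72 hpf, replicate 2 had the highest leukocyte sum and the lowest V-ATPase sum, 751 CPM. Within 48 hpf, replicate 3 was highest and replicate 2 lowest in both sums. That order was not particular to them. It was the reverse of library depth, and the mitochondrial members had it too, at 11037, 8808 and 13018 CPM in replicates 1, 2 and 3. All 10 genes of the list were in the table, 7 were above the floor in at least 1 library at 72 hpf and 9 at 48 hpf, and their sums were 1.76, 107 and 0.280 CPM at 72 hpf, against 390, 339 and 760 CPM at 48 hpf. ptprc, the pan-leukocyte gene, had 0, 27 and 0 raw counts at 72 hpf, against 70, 190 and 184 at 48 hpf. At 48 hpf, only cd74a of the 10 was at 0 in every library. Replicate 3 of 48 hpf and replicate 2 of 72 hpf were the libraries richest in these markers in their stages. Without both, the V-ATPase median was -0.19 with 10 of 12 below 0, and without replicate 3 of 48 hpf alone it was -0.26. The libraries kept without both still differed in the markers, at 1.76 and 0.280 CPM at 72 hpf against 390 and 339 CPM at 48 hpf. In that fit the median of the mitochondrial members also moved up, from 0.19 to 0.37. The part of leukocyte RNA in the V-ATPase values was not tested.

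Other genes of the pathway, counted as lists, are given beside the members, and edgeR and limma voom called 0 genes in each of them. Over all genes, 3.12% were higher and 5.61% lower at an unadjusted edgeR p under 0.05. DESeq2 called 1.16% of all genes higher and 2.82% lower. The KEGG Lysosome genes without the V-ATPase had a median of -0.45 over 104 tested genes, with 24 above 0, 21 lower and 3 higher at an unadjusted p under 0.05, and 12 lower and 1 higher by DESeq2. All 5 complex II genes had positive estimates (median 0.19), with 0 at an unadjusted p under 0.05 and 0 by DESeq2. Among the succinate dehydrogenase genes, sdha had 1852, 1593 and 1510 raw counts at 72 hpf, against 1630, 1379 and 1361 at 48 hpf, with overlapping stages. Assembly factors were positive in 38 of 39 genes (median 0.36), with 2 higher at an unadjusted p under 0.05 and 1 called by DESeq2. That gene was acad9, which is needed to assemble complex I, with 651, 508 and 573 raw counts at 72 hpf, against 361, 394 and 320 at 48 hpf. Its stages did not overlap (log2 fold change 0.82, SE 0.20, edgeR adjusted p = 0.369, DESeq2 adjusted p = 0.00372).

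Transcriptional and mitochondrial DNA regulators were positive in 10 of 17 tested genes (median 0.14). At an unadjusted p under 0.05, 1 was higher and 0 were lower, where 3.12% and 5.61% of all genes were. DESeq2 called 1 of them higher, twnk, the helicase that replicates mitochondrial DNA, with 195, 147 and 477 raw counts at 72 hpf, against 70, 117 and 79 at 48 hpf (log2 fold change 1.86, SE 0.58, edgeR adjusted p = 0.447, DESeq2 adjusted p = 0.0128). The stages stood apart, and replicate 3 of 72 hpf was far above the rest. ppargc1a, the coactivator of mitochondrial biogenesis, had 443, 343 and 220 counts at 72 hpf, against 344, 288 and 225 at 48 hpf, and esrra, a nuclear receptor it works with, had 870, 566 and 664 at 72 hpf, against 599, 534 and 486 at 48 hpf. Both overlapped between stages.

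The remaining lists had 0 to 2 genes at an unadjusted p under 0.05 in a direction, apart from glycolysis and fatty acid degradation. Of all genes, 3.12% were higher and 5.61% lower at that level. Carriers and cytochrome c had a median of 0.11 (12 tested, 10 above 0), ubiquinone synthesis 0.18 (13 tested, 9 above 0), the mitochondrial ribosome 0.24 (74 tested, 66 above 0), the Citrate cycle 0.20 (29 tested, 27 above 0) and the KEGG Ribosome list 0.27 (122 tested, 118 above 0). Glycolysis had a median of 0.12 (59 tested, 38 above 0, 6 higher and 2 lower at an unadjusted p under 0.05) and fatty acid degradation 0.24 (37 tested, 28 above 0, 4 higher and 2 lower). DESeq2 called 1 gene higher in the Citrate cycle, 1 higher and 2 lower in glycolysis, 1 higher and 2 lower in fatty acid degradation, and 0 in the other lists of this paragraph. It called 1.16% of all genes higher and 2.82% lower. Medians were thus positive in each list of this paragraph, and within or above the 0.16 to 0.21 of complexes I, III, IV and V in all but the carriers and glycolysis. The KEGG Ribosome list holds genes of the mitochondrial ribosome as well.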

How the data were processed

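Both stages were profiled with SMART-Seq HT from about 1 ng of total RNA of sorted cells. The study reports that sorted cells were few and that quality control was left out because there was little RNA. RNA quality is therefore not known for any library. The deposited table holds raw counts per gene. Per the study's methods, the authors trimmed single-end reads (Trimmomatic 0.39), aligned them to danRer11 (STAR 2.7.10a), removed duplicates (Picard 3.0.0) together with reads of mitochondrial, ribosomal or multiple origin, and counted exons (featureCounts 2.0.4). Duplicates were judged by position without molecular identifiers, which can hold down the counts of abundant genes. Use of strand was not stated. The table had 0 columns of values for other libraries.

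The comparison used edgeR 4.0.16 under R 4.3.3 (TMM, robust quasi-likelihood, genes with a mean normalized count above 5, Benjamini-Hochberg adjustment). Genes were called at adjusted p below 0.05 and a log2 fold change beyond 0.585. All 97 members passed the filter. Normalized counts are TMM CPM scaled to the mean effective library size. The SE was taken as the absolute log2 fold change over the root of F. Alternatives were DESeq2 1.42.0, limma 3.58.1 voom, other size factors and filters, a replicate block, a sorter term, libraries left out and, chosen after seeing the data, equal library sizes and 4 libraries. The fit was tested on simulated data.

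Members and lists were chosen with earlier results of these data known. Named genes were, per complex, the member with the highest mean count, the 3 smallest edgeR p-values, members called by edgeR or DESeq2, and isoform pairs. atp6v1ab, atp6v1b2, atp6v1d, atp6v0e1, ndufs1 and myl7 were added after their values were seen, as were the genes named outside the members. With 3 libraries a stage, p-values measure the spread between pools. Transcript lengths were not used, so counts set beside each other between genes, shares of paralogs and sums over a complex are uncorrected for length. No sequences were examined.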

Additional observations from a re-analysis of the deposited data

How the results depend on the processing

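No member passed edgeR's adjusted threshold under any edgeR or limma voom alternative, and DESeq2 called 2 higher. Over all genes, those called higher were 1 in the main edgeR test, 186 with DESeq2, 2 without a filter, and 0 with limma voom, with the replicate block, with a sorter term, with replicates 1 and 2 alone and with the 4 libraries (a choice made after seeing the data), with 0 to 1 when single libraries were left out. Those called lower were 0, against 451 with DESeq2 and 9 without a filter. Members lower at an unadjusted p under 0.05 numbered 2, against 4 with DESeq2, 1 with the replicate block, 1 with replicates 1 and 2 only, 0 with the 4 libraries and 0 to 3 without single libraries. Members higher numbered 4, against 7 with the 4 libraries and 2 to 12 without single libraries. The median of the V-ATPase members was -0.39, -0.19 with the 4 libraries, and -0.48 to -0.26 without single libraries. The cause of these shifts was not tested.

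Of 765 single-gene values under alternatives, 740 kept direction and side of the threshold, 2 passed it (cox6a2 at 2.82 and ppa1b at 0.65, DESeq2) and 23 changed sign, in genes with unadjusted edgeR p-values above 0.05 in the main test. cox4i2 was 1.41 with limma voom, 1.28 with the replicate block and -1.01 to 3.72 without single libraries. ppa2 was -0.20 with limma voom, -0.48 with replicates 1 and 2 only, -0.0089 with equal library sizes and -0.18 to 0.59 without single libraries. cox8b was 0.18 with replicates 1 and 2 only. With equal library sizes cox17 was -0.019, cox6b1 -0.031, cox6b2 -0.029 and atp5pf -0.024. Without single libraries cox17 ranged over -0.020 to 0.26, cox6b1 over -0.051 to 0.22, lhpp over -0.12 to 0.29 and atp6v1c1a over -0.56 to 0.082, and atp6v1c1a was 0.20 with the 4 libraries. With equal library sizes, 75.3% of members and 37.8% of all genes had positive estimates, against 87.6% and 48.5% after TMM.

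No clear pairing by replicate number was seen. Deviations from the stage means of same-numbered libraries correlated at -0.01, 0.09 and 0.01, against -0.06 to 0.05 for libraries with different numbers. Such small correlations cannot show that the libraries were unpaired. The block is only an alternative here, under which 81 of 82 mitochondrial members were above 0 (median 0.21).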
